A study of Mus musculus with 28 samples.

Results

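This report follows 9 glial marker genes through primary cortical neuron cultures and the MN1 cell line. They were taken by name from the gene tables, each by its mouse symbol, and are 9 of 45513 genes counted in every library. Gfap, Aqp4, Slc1a3, Slc1a2 and Aldh1l1 are marker genes of astrocytes, Mbp, Olig2 and Pdgfra of the oligodendrocyte lineage, and Cx3cr1 of microglia. The rule for the choice used no measured value, but earlier results of these data were known when it was made.

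The study asked how human TDP-43 (hTDP-43) changes which mRNAs are translated. Ribosome footprints, the stretches of mRNA that a ribosome protects from nuclease, and poly(A)-selected total mRNA were sequenced from each culture, giving 28 libraries. The cortical neurons came from mouse embryos of day 16 (E16) on a C57BL/6J background and were kept for 14 days in vitro. Cytosine arabinoside, which kills dividing cells, was added at 0.5 µM on day 4 in all of them. The 3 neuron genotypes were WT, the non-transgenic littermates (2 cultures), hTDP-43 (3 cultures) and hTDP-43 A315T, a mutation found in patients (3 cultures). Both transgenes were hemizygous and driven by the mouse prion protein promoter, which is active in neurons and in glia. MN1 is a clonal hybrid of mouse spinal motor neurons and neuroblastoma cells. Its cultures received a plasmid for GFP as control, for hTDP-43 or for the A315T form (2 cultures each) and were treated with cycloheximide at 100 µg/mL for 3 min before lysis, which the neurons were not.

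Astrocytes take up glutamate, buffer water and potassium and fill with the filament protein GFAP when they react to injury. Oligodendrocytes arise from dividing precursors that carry the PDGF receptor alpha, and wrap axons in myelin. Microglia, the resident macrophages, are not born in the brain but enter it in the embryo. Cultures of embryonic cortex hold mostly neurons and some glial precursors, and a drug against dividing cells lowers the share of glia. In such bulk libraries, fewer cells of a type and less RNA per cell cannot be told apart.

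The libraries held 600385 to 6969578 counted reads in neuron total mRNA (8 libraries), 166064 to 2528820 in neuron footprints (8), 1328528 to 2988339 in MN1 total mRNA (6) and 332370 to 1219222 in MN1 footprints (6). The shallowest were replicates 2 and 3 of hTDP-43, with 192008 and 166064 footprint reads, so that 3 reads there were worth 15.6 and 18.1 CPM, counts scaled to a library of 1e6 reads. Replicates 3 of WT and of hTDP-43 stood apart in another way. The gene Lars2 took 18.8% and 14.1% of their total mRNA reads, against 3.09% to 7.49% in the other 6 neuron libraries. The neuronal identity of the cultures was borne out by 16 neuron genes, whose summed level was 6156 to 7490 CPM in neuron total mRNA and 555 to 695 CPM in MN1 total mRNA. Reads on the mouse Tardbp gene were 265 and 308 CPM in MN1 total mRNA with GFP and 431 to 513 CPM with either transgene, but overlapped between WT (64.0 and 76.4 CPM) and transgenic neurons (43.3 to 79.1 CPM). How many of them came from the human transgene was not tested.

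Among the 9 members, Slc1a2 had the highest level in the neuron cultures. The other astrocyte members did not stand above the oligodendrocyte lineage as a group. In total mRNA per kilobase of exon, Slc1a3 was above Olig2 in 4 of 8 libraries. The medians of Olig2 and Mbp lay above those of Aldh1l1, Aqp4 and Gfap. Per kilobase of exon, the median total mRNA level over the 8 neuron libraries was 20.2 CPM for Slc1a2, 4.20 for Slc1a3, 4.17 for Olig2, 3.07 for Mbp, 2.57 for Aldh1l1, 1.22 for Aqp4, 0.472 for Gfap, 0.112 for Pdgfra and 0.0869 for Cx3cr1. The ranges of neighbours in that order were apart at 2 steps, below Slc1a2 and below Gfap, and overlapped at the other 6. The step below Gfap rests on 1 Gfap read in hTDP-43 replicate 2 (0.220 CPM per kilobase), against at most 0.197 for Pdgfra. Cx3cr1 reached 0.5055 in WT replicate 3, inside the range of Gfap. In footprints the order of these medians per kilobase was Slc1a2 (19.5 CPM), Slc1a3 (9.46), Aldh1l1 (4.88), Olig2 (4.04), Mbp (1.502), Aqp4 (1.44), Gfap (0.444), Pdgfra (0.0300) and Cx3cr1 (0). The ranges there were apart only below Slc1a2.

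**Figure D1:**
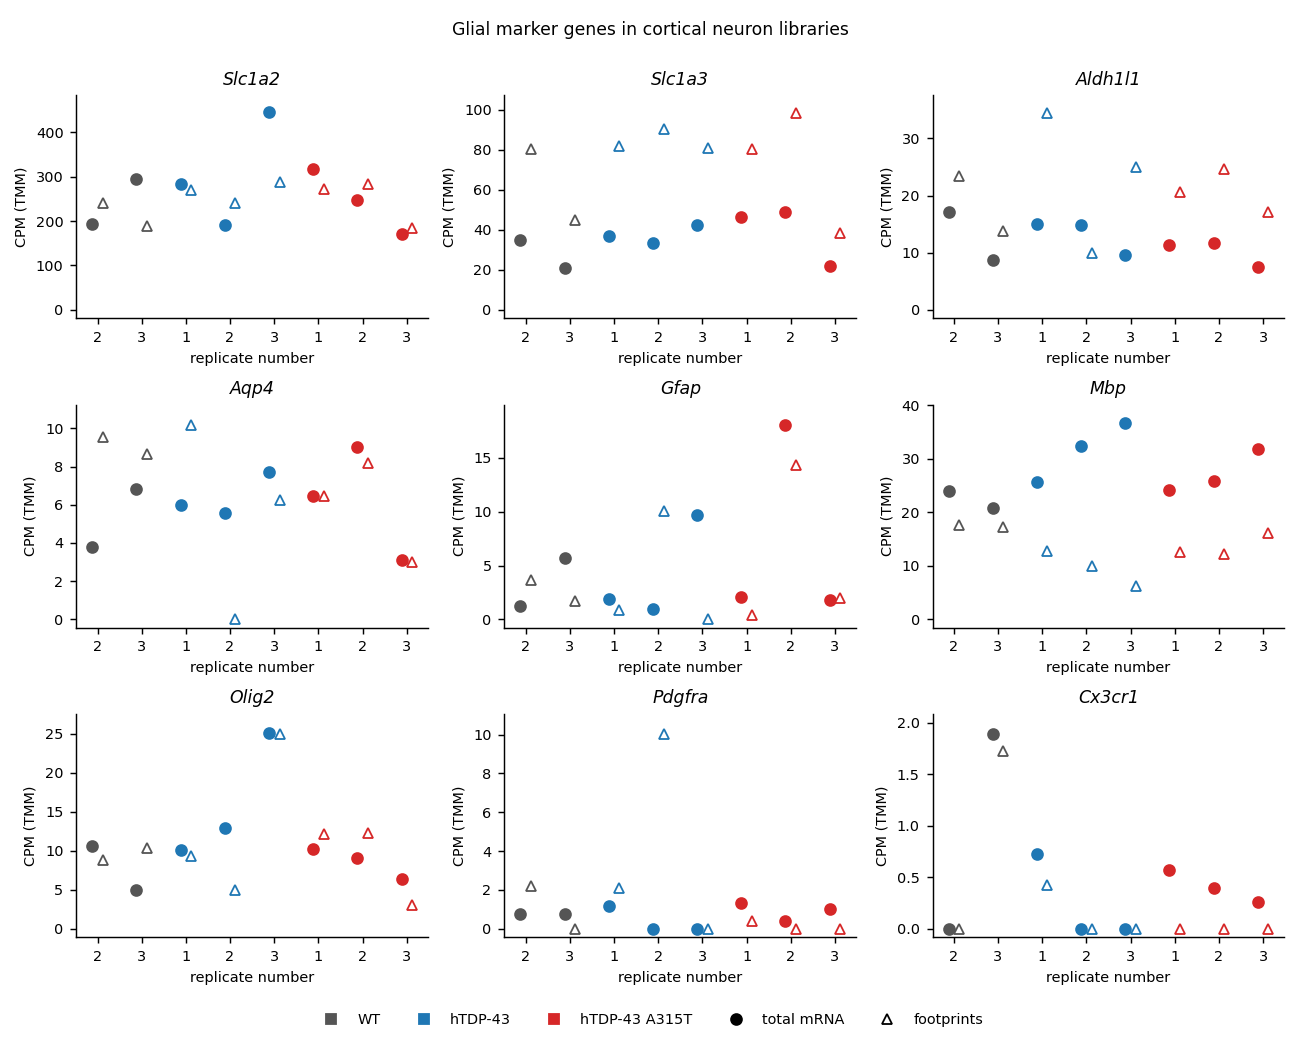
Level of each of the 9 genes (vertical axis, CPM scaled by TMM, linear and different in each panel) in the 8 cortical neuron cultures, by genotype (colour) and replicate number (horizontal axis), in total mRNA (filled circles) and footprints (open triangles). Slc1a2 lies between 172 and 446 CPM in every total mRNA library, whereas Pdgfra and Cx3cr1 stay below 2 CPM there, and the Gfap panel is led by replicate 2 of hTDP-43 A315T at 18.1 CPM.

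Slc1a2 (ENSMUSG00000005089, chr2:102658659-102790784 of GRCm38, plus strand) encodes GLT-1, the glutamate transporter that clears most glutamate in the adult forebrain. Its mRNA is known from some excitatory neurons as well as from astrocytes. In total mRNA it was 194 and 294 CPM (WT replicates 2 and 3), 283, 190.0 and 446 CPM (hTDP-43 replicates 1 to 3) and 318, 248 and 172 CPM (hTDP-43 A315T replicates 1 to 3). The highest library was replicate 3 of hTDP-43, and the 3 genotypes overlapped. In footprints it ranged from 185 to 287 CPM with a median of 256 CPM. Slc1a2 rested on 6899 reads in neuron total mRNA, the most of any member. Its exons share 189 bases with the opposite-strand gene Gm13872, and counting did not use strand.

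Slc1a3 (ENSMUSG00000005360, chr15:8634124-8710764, minus strand) encodes GLAST, the transporter of immature and radial astrocytes. In total mRNA it was 35.0 and 20.8 CPM (WT), 36.7, 33.4 and 42.5 CPM (hTDP-43) and 46.6, 48.7 and 22.1 CPM (hTDP-43 A315T). In footprints the values were 80.6 and 44.9 CPM (WT), 81.9, 90.3 and 81.0 CPM (hTDP-43) and 80.3, 98.2 and 38.4 CPM (hTDP-43 A315T). Replicates 3 of WT and of hTDP-43 A315T were the 2 lowest in both kinds of library.

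The 2 transporters are related proteins, so the sequences that they share are shown as a check of whether short footprint reads can tell them apart. The longest run of bases common to both coding sequences was 17 bases, once in each gene, at chr2:102761106-102761122 (plus strand) in Slc1a2 and at chr15:8642269-8642285 (minus strand) in Slc1a3, both coding exons of GRCm38 with GENCODE M21 transcripts. In small letters, 5′ to 3′ on the coding strand:
Slc1a2 and Slc1a3: accattaacatggatgg
Of the 1692 windows of 28 bases in the Slc1a2 coding sequence, 0 were identical to a window of Slc1a3, and 11 had 3 mismatches, the fewest of any. The aligner was allowed 3 mismatches in a read of 28 bases, and no filter on read length was applied, so reads from those windows or shorter reads could match both.

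Aldh1l1 (ENSMUSG00000030088, chr6:90486427-90600203, plus strand) encodes a folate enzyme used as a general astrocyte marker. In total mRNA it was 17.1 and 8.70 CPM (WT), 15.1, 14.8 and 9.65 CPM (hTDP-43) and 11.4, 11.8 and 7.46 CPM (hTDP-43 A315T). The 3 libraries of replicate 3 were the 3 lowest, that of hTDP-43 with 5 reads. In footprints it ranged from 10.0 to 34.4 CPM with a median of 22 CPM. Its exons share 499 bases with the opposite-strand gene Gm15756.

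Aqp4 (ENSMUSG00000024411, on chromosome 18), the water channel of astrocyte endfeet, ranged from 3.09 to 9.04 CPM in total mRNA with a median of 6.22 CPM. In footprints it ranged from 0 in replicate 2 of hTDP-43, where 3 reads were worth 15.6 CPM, to 10.2 CPM. Gfap (ENSMUSG00000020932, chr11:102887336-102900912, minus strand), the intermediate filament of mature and reactive astrocytes, was low and uneven. In total mRNA it was 1.26 and 5.68 CPM (WT), 1.90, 0.927 and 9.65 CPM (hTDP-43) and 2.08, 18.1 and 1.8 CPM (hTDP-43 A315T). Replicate 2 of hTDP-43 A315T alone gave 46 of the 103 Gfap reads in neuron total mRNA. The footprints of the same culture held the highest Gfap level too, 14.3 CPM from 7 reads, against 0 to 10.0 CPM in the other 7. The 12 genes of a list for reactive astrocytes, which holds none of the 9, summed to 16.1 CPM in the total mRNA of that culture, inside the range of 11.6 to 18.9 CPM of all 8.

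Mbp (ENSMUSG00000041607, on chromosome 18) encodes myelin basic protein. The same gene also makes the golli transcripts, which neurons and other cells use, and a count per gene adds both. In total mRNA it was 23.9 and 20.8 CPM (WT), 25.6, 32.4 and 36.7 CPM (hTDP-43) and 24.2, 25.9 and 31.9 CPM (hTDP-43 A315T), so both WT libraries lay below all 6 transgenic ones with TMM scaling. By library totals Mbp was at 26.3 CPM in WT replicate 2, above hTDP-43 replicate 1 (25.1 CPM) and hTDP-43 A315T replicate 1 (23.7 CPM). In footprints it was 17.6 and 17.3 CPM (WT), 12.7, 10.0 and 6.23 CPM (hTDP-43) and 12.5, 12.3 and 16.2 CPM (hTDP-43 A315T), so both WT libraries lay above the transgenic ones. The lowest of these rest on 2 reads and 1 read in hTDP-43 replicates 2 and 3.

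Olig2 (ENSMUSG00000039830, chr16:91225550-91228677, plus strand) encodes a transcription factor of the whole oligodendrocyte lineage and of some astrocyte precursors. In total mRNA it ranged from 4.92 CPM in WT replicate 3 to 25.1 CPM in hTDP-43 replicate 3, with a median of 10.2 CPM. Both extremes rest on 13 reads, in the libraries where Lars2 took the highest shares of reads. Pdgfra (ENSMUSG00000029231, chr5:75152291-75198204, plus strand), the receptor of oligodendrocyte precursors, had 25 reads over the 8 total mRNA libraries, with at most 1.33 CPM, and was at 0 in 2 of them. Its exons hold the 30 bases of the microRNA gene Mir7025 on the same strand. Cx3cr1 (ENSMUSG00000052336, chr9:119901616-120068283, minus strand), the fractalkine receptor of microglia, had 15 reads over the 8 total mRNA libraries and 2 over the 8 footprint libraries. It was at 0 in 3 total mRNA libraries, and only replicates 3 of WT and 1 of hTDP-43 held more than 3 reads, with 1.89 and 0.731 CPM.

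Wider marker lists were read beside the members. Of 25 other astrocyte genes, 16 had a median of 10 CPM or more in neuron total mRNA, and their sum ranged from 841 CPM in WT replicate 3 to 1559 CPM in WT replicate 2. The highest were Atp1b2 and Apoe, with medians of 192 and 188 CPM, whereas S100b was at 2.04 CPM and the gap junction gene Gjb6 at 0. Of 18 other genes of the oligodendrocyte lineage, 2 reached a median of 10 CPM, namely Olig1 (22.7 CPM) and Cnp (14.2 CPM). The lineage factor Sox10 stood at 0.168 CPM, the precursor proteoglycan gene Cspg4 at 1.16 CPM and the myelin gene Mog at 3.18 CPM. Of 19 other microglia genes none had a median of 10 CPM. The complement genes C1qa, C1qb and C1qc, Tyrobp, Siglech and Tmem119 had medians of 0, and the 2 highest, Sall1 (6.63 CPM) and Cd68 (5.67 CPM), are also used by other cells. The 8 genes of cell division summed to 5.04 to 11.6 CPM in neuron total mRNA, with Mki67 at a median of 1.49 CPM, against 697 to 1041 CPM in MN1 total mRNA. The 11 vascular and fibroblast genes summed to 37.1 CPM in WT replicate 3 and to 7.30 to 13 CPM in the other 7 neuron total mRNA libraries. In MN1 total mRNA the other astrocyte genes summed to 792 to 952 CPM and the vascular and fibroblast genes to 11.8 to 22.5 CPM. The other oligodendrocyte lineage genes summed to 22.8 to 83.8 CPM in MN1 and 48.05 to 86.9 CPM in neuron total mRNA. The other microglia genes summed to 41.1 to 50.5 CPM in MN1 and 17.7 to 42.5 CPM in neurons. These sums are thus not a measure of glial content by themselves.

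**Figure D2:**
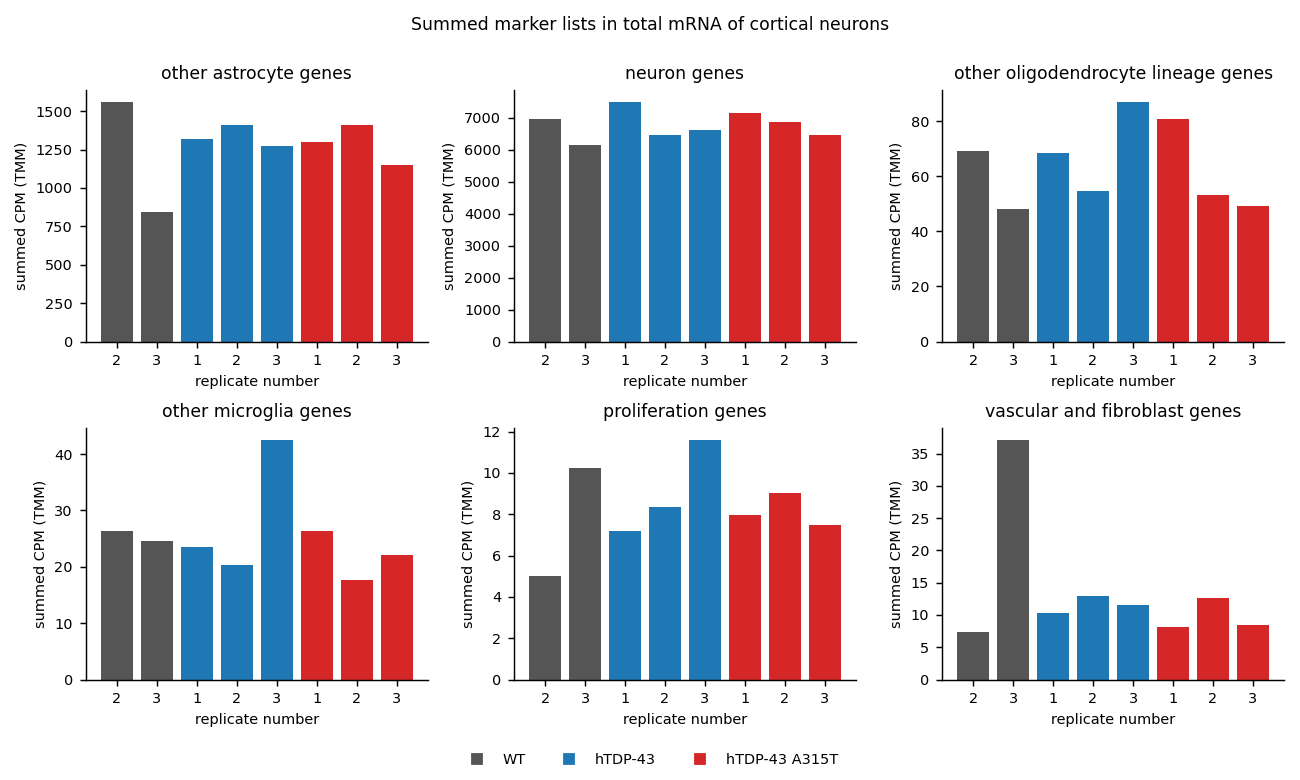
Summed level (vertical axis, CPM scaled by TMM, from 0) of 6 marker lists in the total mRNA of the 8 neuron cultures, by genotype (colour) and replicate number; the lists hold none of the 9 genes. WT replicate 3 has the lowest sum of other astrocyte genes, 841 CPM, and the highest of vascular and fibroblast genes, 37.1 CPM.

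MN1 cells, a line of neuronal origin, served as a contrast. Aldh1l1 had no read in the 12 MN1 libraries, and Gfap, Olig2 and Cx3cr1 had none in the 6 MN1 footprint libraries. In MN1 total mRNA, Slc1a2 had 7 reads, Gfap 4, Slc1a3, Olig2 and Cx3cr1 3 each and Aqp4 2. Mbp was the exception, with 71 reads and 4.84 to 8.48 CPM in each MN1 total mRNA library, and Pdgfra had 17 reads and 0.665 to 3.54 CPM.

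Pooled over libraries, the ratio of the neuron level to the MN1 level in total mRNA was 435 for Slc1a2 (exact 95% counting interval 211 to 1083), 141 for Slc1a3 (48.2 to 686), 37.3 for Olig2 (12.6 to 182), 33.8 for Aqp4 (9.20 to 282), 11.4 for Gfap (4.31 to 42.5) and 4.34 for Mbp (3.39 to 5.62). Aldh1l1 was at least 49.2-fold higher in neurons, with 3 reads over all 6 MN1 libraries taken as the floor. These intervals cover counting error only. For Pdgfra the ratio was 0.650 (0.337 to 1.28) and for Cx3cr1 2.21 (0.625 to 11.9), so that neither was shown to differ at this depth. Olig2 and Aldh1l1 in footprints were at least 14.5-fold and 35.8-fold higher in neurons.

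In the fit across all genes, 81% of 12801 genes differed between neurons and MN1 in total mRNA (42.6% higher in neurons, 38.4% lower) and 82.6% of 10698 in footprints (42.7% higher, 39.9% lower), at an adjusted p below 0.05 (edgeR quasi-likelihood test, Benjamini-Hochberg). Most members passed the filter on low counts through the neuron groups alone, so their calls had to follow. Of the 7 members tested in total mRNA, Slc1a2, Gfap and Mbp had more than 3 MN1 reads, and their differences on the log2 scale were 9.23 ± 0.41 (SE; 8 against 6 libraries), 4.54 ± 1.23 and 2.57 ± 0.20. A fitted difference of the other 4, with 0 to 3 MN1 reads, would depend on the prior count of the fit. The pooled ratios stand in its place. The fitted difference of Gfap depends on the prior count too, because its 4 MN1 reads include 0 in the hTDP-43 group. Its pooled ratio was 11.4 (4.31 to 42.5). That of Slc1a2 rests on 7 MN1 reads. Mbp, with reads in every MN1 total mRNA library, had an adjusted p of 1.67e-08 (edgeR). In footprints Slc1a2, Slc1a3, Aldh1l1 and Mbp could be tested. Mbp had a fitted log2 difference of 3.72, which depends on the prior count because the MN1 hTDP-43 A315T group held 0 reads. With 10 reads in MN1 footprints, its pooled ratio was 6.22 (exact 95% counting interval 3.27 to 13.3). Slc1a2 and Slc1a3 had 3 reads and 1 read in MN1 footprints, with pooled ratios of 373 (exact 95% counting interval 128 to 1811) and 334 (59.8 to 13220). Pdgfra and Cx3cr1 passed the filter in neither, and Gfap, Aqp4 and Olig2 not in footprints.

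Astrocyte genes did not all separate the cells in that direction. Of the 25 other astrocyte genes 23 were tested in total mRNA, 15 were higher in neurons and 5 lower. Those near 0 in 1 cell type, such as Id3, Slc6a11, Sparcl1 and Fabp7, passed the filter through the other alone. Their calls had to follow, so these counts are a description. Those lower were Id3, at 0 to 1.14 CPM in neurons and 95.4 to 135 CPM in MN1, and Vim, Fgfr3, Sox9 and Nes, by 3.40, 1.88, 1.83 and 0.82 on the log2 scale, which are also genes of progenitor or dividing cells. Among those higher were the GABA transporter Slc6a11, at 132 to 198 CPM in neurons and 0 to 1.27 CPM in MN1, and the secreted synapse protein Sparcl1, at 116.0 to 186 and 0 to 1.697 CPM. The fatty acid binding protein Fabp7 was at 11.6 to 48.1 CPM in neurons and at 0 in all 6 MN1 total mRNA libraries.

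**Figure D3:**
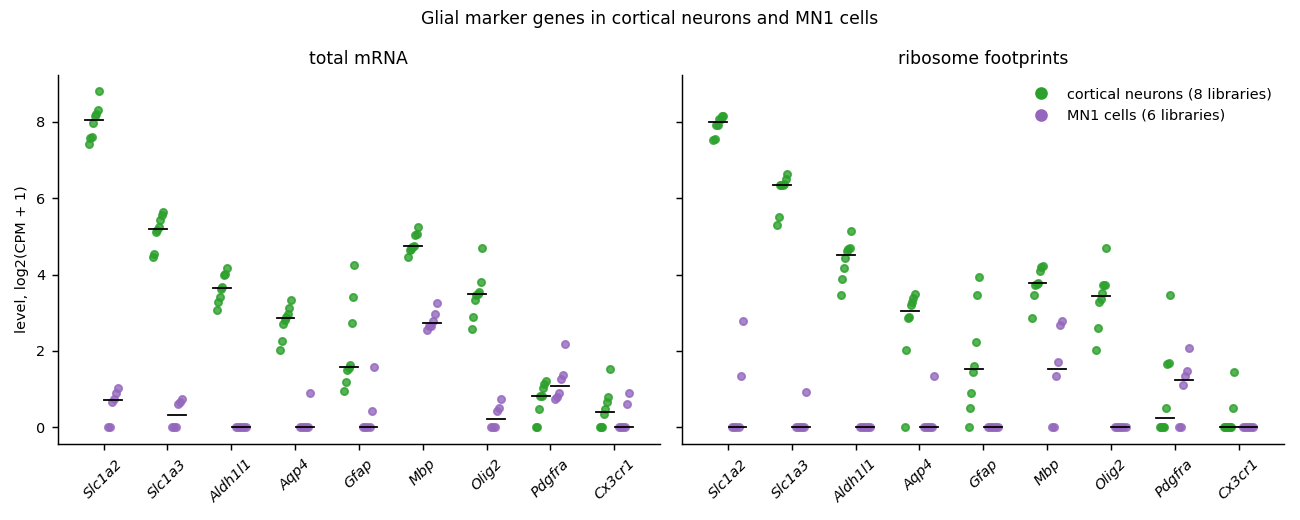
Level of the 9 genes, log2(CPM + 1) on the vertical axis, in the 8 cortical neuron libraries (green) and 6 MN1 libraries (purple) of total mRNA (left) and footprints (right); each point is a library and each bar a median. The neuron and MN1 points are apart for Slc1a2, Slc1a3, Aldh1l1, Mbp and Olig2 in both panels, and overlap for Pdgfra and Cx3cr1. For Mbp footprints the gap is narrow, between 6.23 CPM from 1 read in neurons and 5.91 CPM from 2 reads in MN1.

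The genotype comparisons asked whether the transgenes went with more or less of a glial gene. No member passed the threshold in total mRNA or in footprints. The same was true of the background, where 0% of genes passed the threshold in each of the 6 comparisons, so the absence of calls is not particular to glial genes. In edgeR 196, 44 and 119 genes had an unadjusted p below 0.05 in total mRNA for hTDP-43 A315T against WT, hTDP-43 against WT and hTDP-43 A315T against hTDP-43, and 300, 419 and 217 in footprints. DESeq2 called 1 gene, no member, for hTDP-43 A315T against WT in total mRNA and 0 in the other 5. The comparisons share their control cultures.

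The log2 differences of the members show how wide the uncertainty was with 2 or 3 cultures a group. For hTDP-43 A315T against WT in total mRNA they were 0.98 ± 1.16 (SE; n = 3 and 2) for Gfap, 0.44 ± 0.39 for Slc1a3, 0.24 ± 0.26 for Mbp, 0.16 ± 0.58 for Aqp4, 0.09 ± 0.43 for Olig2, -0.06 ± 0.32 for Slc1a2 and -0.40 ± 0.39 for Aldh1l1, each with an adjusted p of 1 in edgeR. For hTDP-43 against WT they were 0.90 ± 0.56 for Olig2, 0.44 ± 0.32 for Mbp, 0.39 ± 0.32 for Slc1a3, 0.29 ± 0.41 for Slc1a2, 0.20 ± 0.55 for Aqp4, 0.05 for Aldh1l1 and -0.21 ± 1.1 for Gfap. For hTDP-43 A315T against hTDP-43, where Gfap did not pass the filter, the differences ran from -0.69 ± 0.39 for Olig2 to 0.06 ± 0.30 for Slc1a3. In footprints, 3 to 5 members could be tested, with differences from -0.59 ± 0.45 for Mbp to 0.54 ± 0.38 for Aldh1l1, both for hTDP-43 against WT. With the replicate number as a block that of Aldh1l1 was -0.21.

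With the replicate number as a block, 35 genes (0.293%) were called for hTDP-43 A315T against WT in total mRNA, 20 (0.169%) in hTDP-43 against WT and 0 in hTDP-43 A315T against hTDP-43, and 8 (0.0841%), 5 (0.0616%) and 15 (0.179%) in footprints. No member was among them. Without WT replicate 2, which leaves 1 WT library assumed to vary like the others, 1573 genes were called for hTDP-43 A315T against WT in total mRNA.

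Of the other marker lists, 0 genes were called in any of these genotype comparisons. The median log2 difference of the other astrocyte genes tested was 0.03 for hTDP-43 A315T against WT in total mRNA (22 genes) and 0.17 for hTDP-43 against WT (21 genes), beside medians of 0.00 over all genes tested. In footprints it was 0.08 (20 genes) and 0.27 (19 genes), and -0.20 for hTDP-43 A315T against hTDP-43 (19 genes), beside 0.00, -0.01 and 0.01 over all genes tested. The footprint medians of the 16 neuron genes had the same signs, at 0.03, 0.16 and -0.10. The footprints of the 19 other microglia genes summed to 17.6 and 20.7 CPM (WT), 25.1 to 37.4 CPM (hTDP-43) and 34.8 to 45.4 CPM (hTDP-43 A315T), so WT lay below both, whereas their total mRNA sums of 24.6 to 26.4, 20.4 to 42.5 and 17.7 to 26.3 CPM overlapped. These sums were given no test.

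The lower total mRNA level (with TMM scaling only) and higher footprint level of Mbp in WT led to a comparison chosen after these values were seen. The footprint level divided by the total mRNA level of the same culture was 0.735 and 0.830 (WT), 0.497, 0.309 and 0.170 (hTDP-43) and 0.516, 0.473 and 0.507 (hTDP-43 A315T). That WT lies above the transgenic cultures here is fixed by the values that led to the ratio. Its log2 difference from WT was -0.58 ± 0.43 in hTDP-43 A315T and -0.85 ± 0.47 in hTDP-43, with unadjusted p of 0.196 and 0.0909 and adjusted p of 1 in both (edgeR, each culture as a block). That test called 0% of 11654 genes in either comparison, with 252 and 187 at an unadjusted p below 0.05, and DESeq2 called 0 in both.

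The replicate number of a neuron culture goes with a date in its sample label, 17 June for replicate 1, 16 July for replicate 2 and 29 July for replicate 3, all in the same year. Slc1a3 had the lowest p of the members over the dates in footprints and Aldh1l1 in total mRNA, and neither passed the threshold. Slc1a3 footprints were at 80.3 to 81.9 CPM in the 2 cultures of 17 June, at 80.6 to 98.2 CPM in the 3 of 16 July and at 38.4 to 81.0 CPM in the 3 of 29 July. In the last date WT and hTDP-43 A315T were the low cultures, and hTDP-43, whose value rests on 13 reads, was not.

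In the test over the 3 dates with genotype as a term, 2.36% of 9212 genes were called in footprints and 0.0733% of 12277 in total mRNA, and no member was among them. Of the other astrocyte genes, 1 of 20 tested was called in footprints and 0 of 23 in total mRNA. Slc1a3 in footprints gave F = 8.65 with an unadjusted p of 0.00179 and an adjusted p of 0.068 in edgeR. Its adjusted p was 0.035 without hTDP-43 replicate 3, where 1.94% of genes were called, 0.011 without the filter on low counts (1.84%), and 0.518 without hTDP-43 A315T replicate 3, and DESeq2 gave an unadjusted p of 0.0252 and an adjusted p of 0.981. In total mRNA, Slc1a3 was at 36.7 to 46.6, 33.4 to 48.7 and 20.8 to 42.5 CPM on the 3 dates (adjusted p = 0.673, edgeR).

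Aldh1l1 in total mRNA was at 11.4 and 15.1 CPM on 17 June, at 11.8 to 17.1 CPM on 16 July and at 7.46 to 9.65 CPM on 29 July. The last date did not overlap with the other 2 dates, and the adjusted p of Aldh1l1 was 0.615 (edgeR). The highest value of 29 July, in hTDP-43 replicate 3, rests on 5 reads. Lars2 took a high share of reads in that library and in WT replicate 3. In footprints Aldh1l1 overlapped between all dates. Gfap footprints were at 3.66 to 14.3 CPM on 16 July and at 0 to 2.02 CPM on the other dates, but rest on 2 to 7 reads in the libraries of 16 July and were not tested.

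Without hTDP-43 A315T replicate 3 the test over dates called 2888 genes in total mRNA, in place of 9. These were 24% of the 12054 tested, and 2 of the 7 members tested were among them, Slc1a2 (adjusted p = 0.00132, edgeR) and Gfap (adjusted p = 0.0084). That left 29 July with the 2 libraries in which Lars2 took 18.8% and 14.1% of reads. WT had no culture of replicate 1, so date and genotype are not fully crossed.

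**Figure D4:**
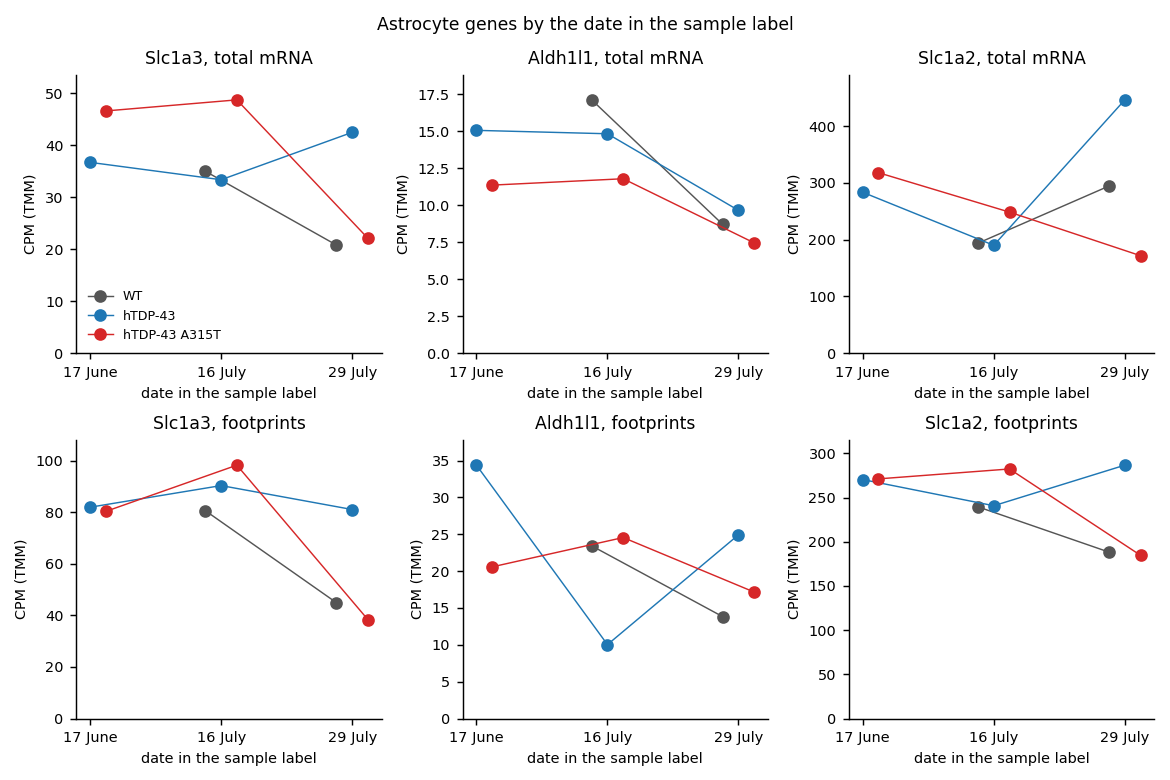
Level of Slc1a3, Aldh1l1 and Slc1a2 (vertical axis, CPM scaled by TMM, from 0) in total mRNA (top) and footprints (bottom) of the neuron cultures, by the date in the sample label (horizontal axis) and genotype (colour); lines join cultures of 1 genotype. The Slc1a3 footprints of WT and hTDP-43 A315T lie at 44.9 and 38.4 CPM on 29 July, and hTDP-43 at 81.0 CPM.

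Footprints were set against total mRNA of the same cultures to see which glial mRNAs carried more or fewer ribosome footprints than their abundance. Slc1a3 and Aldh1l1 had more and Mbp had fewer. Slc1a3 footprints exceeded total mRNA in 8 of 8 cultures, 1.72 to 2.71 times, with a log2 difference of 0.97 ± 0.11 (SE, 8 cultures; adjusted p = 1.37e-06, edgeR with each culture as a block). Aldh1l1 was higher in 7 of 8 cultures, the exception being hTDP-43 replicate 2 with 2 footprint reads, with a log2 difference of 0.81 ± 0.18 (adjusted p = 0.000906). Mbp was lower in 8 of 8 cultures, at 0.170 to 0.830 times its total mRNA level, with a log2 difference of -0.95 ± 0.17 (adjusted p = 0.000122).

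For the other members tested, the log2 differences were 0.32 ± 0.26 for Aqp4, -0.08 ± 0.22 for Olig2 and -0.15 ± 0.13 for Slc1a2, with adjusted p of 0.302, 0.787 and 0.317 in edgeR. Gfap, Pdgfra and Cx3cr1 did not pass the filter on low counts. These calls stand against a background in which 63.4% of 10337 genes passed the same threshold, 30% with more footprints and 33.4% with fewer. A share of 3 of the 6 members tested is thus no larger than that of all genes.

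The other astrocyte genes and the neuron genes leaned toward more footprints. Of the other astrocyte genes, 20 were tested, 14 had more footprints than total mRNA and 0 fewer, with a median log2 difference of 0.75 beside -0.04 over all genes tested. Sparcl1 (1.72), Gja1, the main gap junction protein of astrocytes (1.35), and the secreted chaperone Clu (1.30) led them. Of 16 neuron genes, 11 had more and 2 fewer, with a median of 0.70, so the lean was not that of astrocyte genes alone. The 3 genes tested of the other oligodendrocyte lineage list had a median of -0.19. Olig1 had fewer (-0.73, adjusted p = 0.0141, edgeR), whereas Cnp had more (0.45, adjusted p = 0.0288).

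Counts were taken over whole exons while footprints lie mostly in coding sequence. Coding sequence made up 19.9% of the exon bases of Slc1a3, 60.0% of Aldh1l1, 14.0% of Mbp and 13.7% of Slc1a2, against a median of 38.8% over 11230 expressed coding genes. The part of coding share in these differences was not tested.

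**Figure D5:**
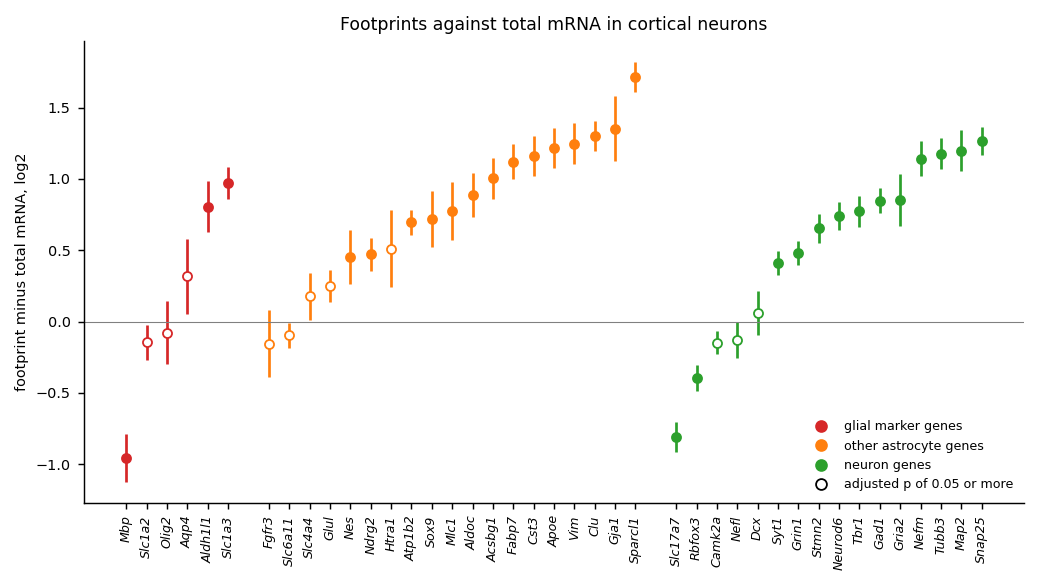
Log2 difference between footprints and total mRNA of the 8 neuron cultures (vertical axis; points are estimates, bars 1 SE) for the 6 glial marker genes tested (red), 19 of the other astrocyte genes tested (orange) and 16 neuron genes (green); filled points passed an adjusted p of 0.05. Slc1a3 lies at 0.97 and Mbp at -0.95, and the other astrocyte genes run from below 0 to Sparcl1 at 1.72.

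Across the 8 neuron total mRNA libraries the 9 genes did not rise and fall as a unit. Pearson's r of log2 CPM, given as a description over 8 libraries that also differ in depth, was 0.75 between Gfap and Aqp4, 0.72 between Aqp4 and Slc1a2 and 0.68 between Mbp and Olig2, but 0.30 between Gfap and Slc1a3 and -0.39 between Gfap and Aldh1l1. Among 9107 or 9108 genes with a mean of at least 10 CPM, the most like Slc1a3 were BC005537 (r = 0.94), Tppp (0.92), Etv5 (0.92), Srf (0.92) and Vxn (0.92). Those most like Mbp were Nob1 (0.99), Alg1 (0.98), Gnaz (0.97), Tmcc3 (0.96) and Surf6 (0.94). Gfap was nearest to Trim24 (0.93), Slc35a5 (0.92), Ccng1 (0.92), Zic1 (0.91) and Morc3 (0.91), and Aqp4 to Rspry1 (0.94), Eny2 (0.94), Mef2c (0.92) and Ddx3y (0.90). No glial marker of the lists was among the 5 nearest genes of any of the 4.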

How the data were processed

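The authors trimmed reads with cutadapt 1.8.1, removed non-coding RNA with Bowtie2, aligned to GRCm38 with TopHat2 and deposited raw counts per gene from featureCounts 1.4.4 (exons of Ensembl 80, uniquely mapped reads; the deposited count tables name no strand option). Each of the 28 tables holds 45513 genes, of which 44585 were given a symbol. Members and lists were chosen with earlier results of these data known. The genes named beside the members follow a rule: of each list those past the threshold, at most 4 by size, or else the 3 highest, and the 5 genes most like Gfap, Slc1a3, Aqp4 and Mbp. Others, among them markers named for low or 0 levels and the genes lower in neurons, were chosen after their values were seen. Some genes of the lists, and 1 of the genes most like a member, are counted but not reported here by name.

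Counts were scaled by TMM and tested with edgeR 4.0.16 in R 4.3.3 (glmQLFit, glmQLFTest, filterByExpr with minimums of 10 and 15 reads), with Benjamini-Hochberg adjustment over all genes tested and a threshold of 0.05; DESeq2 was an alternative. CPM are scaled by TMM within each cell type and library kind, so levels set across them carry separate scalings, except the pooled neuron to MN1 ratios, which use library totals. The SE is the log2 difference divided by the square root of F and is left out near 0. Nothing states that the cultures of a genotype came from separate litters, so p-values measure the spread between cultures, which may be technical. Each transgene came from its own mouse line, so line and genotype cannot be told apart. The paper also reports somewhat more mutant than wild-type human protein in the neurons. The replicate number pairs the cultures, since it goes with the date in the labels (1 MN1 label differs in its year). Same-numbered neuron libraries had a mean correlation of deviations of 0.171 (range -0.175 to 0.52) in total mRNA and 0.12 (0.0293 to 0.248) in footprints. Tests were checked on simulated counts with planted changes and no other difference between dates or cultures. That check does not cover outlying libraries. No libraries held identical counts.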

Additional observations from a re-analysis of the deposited data

How the results depend on the processing

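Of 650 member values under another setting, 607 kept their direction and side of the threshold, 39 changed sign and 4 passed the threshold; the cause was not tested unless a setting's own construction shows it. None of the calls of members between footprints and total mRNA was lost or changed sign in a setting that tested it. The 18 mean levels moved by less than 1 SD with library totals in place of TMM. With the replicate block, 35 (hTDP-43 A315T against WT) and 20 (hTDP-43 against WT) genes were called in total mRNA and 8, 5 and 15 in footprints, the comparison of the transgenic genotypes last, where 0 were called without it. The block changed no call of a member. It turned the log2 difference for hTDP-43 against WT of Aldh1l1 to -0.21 in footprints and -0.067 in total mRNA and that of Gfap to 0.44, and of Aqp4 for hTDP-43 A315T against hTDP-43 to 0.0080. Without the filter on low counts, which adds genes, 209, 50 and 70 genes were called in total mRNA and 78, 58 and 23 in footprints for the 3 genotype comparisons in that order, 436 and 370 between dates, and 51 and 16 in the comparison of footprints against total mRNA with WT, and Slc1a2 for hTDP-43 A315T against WT in total mRNA became 0.013. DESeq2 called 1 gene for hTDP-43 A315T against WT in total mRNA, and 60 and 63 between dates. With hTDP-43 and hTDP-43 A315T alone, 2 genes were called between dates in total mRNA, and with WT and GFP alone 6471 between neurons and MN1, from fewer libraries.

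Leaving out 1 culture at a time gave 0 to 1573 genes for hTDP-43 A315T against WT in total mRNA, 0 to 3 in footprints, 0 to 11 for hTDP-43 against WT and 0 to 2 between the transgenic genotypes in footprints, 1 to 2888 between dates in total mRNA and 56 to 274 in footprints. For footprints against total mRNA it gave 0 to 574 (hTDP-43 A315T) and 0 to 265 (hTDP-43) against WT, both highest without WT replicate 2, where the lone WT culture is assumed to vary like the others. Log2 differences that changed sign in this way, in total mRNA against WT, ranged from -0.75 to 0.14 (Aldh1l1), -0.26 to 0.67 (Aqp4), -0.30 to 0.71 (Olig2) and -0.35 to 0.35 (Slc1a2) for hTDP-43 A315T, and from -0.27 to 0.56 (Aldh1l1), -0.28 to 0.73 (Aqp4), -1.21 to 1.21 (Gfap) and -0.11 to 0.70 (Slc1a2) for hTDP-43. Between the transgenic genotypes (A315T minus hTDP-43) they ranged from -0.35 to 0.30 (Aqp4), -0.58 to 0.046 (Slc1a2) and -0.12 to 0.35 (Slc1a3) in total mRNA, and from -0.67 to 0.23 (Aldh1l1), -0.22 to 0.050 (Slc1a2) and -0.44 to 0.066 (Slc1a3) in footprints. For hTDP-43 A315T against WT in footprints they ranged from -0.20 to 0.51 (Aldh1l1), -0.20 to 0.36 (Olig2) and -0.18 to 0.62 (Slc1a3). Between footprints and total mRNA, Olig2 ranged from -0.16 to 0.031 and Slc1a2 from -0.19 to 0.015, the last without both high-Lars2 cultures, a setting chosen after the data were seen. Depth limits Gfap, Pdgfra, Cx3cr1 and all footprint values of hTDP-43 replicates 2 and 3.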
